A study of Homo sapiens with 12 samples.

Results

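The SR splicing factor genes described here are SRSF1, SRSF2, SRSF3, SRSF4, SRSF5, SRSF6, SRSF7, SRSF9, SRSF10 and SRSF11. They were chosen by name from the curated coding 3′ UTR intervals of the data, and all 10 were found among 18651 coding genes. Overlapping intervals of a gene were counted once. SR proteins bind RNA through RNA recognition motifs and carry a domain rich in arginine and serine, through which they recruit the U1 and U2 machinery to exons and so favour splicing. They are phosphorylated by SRPK and CLK kinases, which set where in the nucleus they sit and whether they can act, and transportin-SR (TNPO3) carries them into the nucleus. Many SR genes are known to adjust their own mRNA by splicing in or out an exon or intron that marks the transcript for nonsense-mediated decay.

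The libraries were SLAM-seq libraries of 22Rv1, a human prostate carcinoma line that expresses the androgen receptor. In every group, DMSO controls included, the cells had been gene-edited to express C1111S-SF3B1. SF3B1 is the subunit of SF3b, the complex at the branch site of the intron, that pladienolide B binds. DMSO was given at 0.1% v/v. WX-02-23 and WX-02-43, which are named by code only and termed stereoprobes in the labels, were given at 20 µM for 3 h, and PladB (pladienolide B) at 10 nM for 3 h. All cells then received 100 µM 4-thiouridine for 1 h. After alkylation, 4-thiouridine in RNA is read as C in place of T, so a read with such a change (a T>C read) is taken as coming from RNA made during labelling.

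Each of the 4 groups had 3 libraries. The labels do not say whether these were separate cultures, nor whether the edited line was 1 clone, and p-values therefore measure the spread between these samples, which may be technical. The libraries read the 3′ ends of transcripts, so the C1111S substitution itself could not be checked from them. A library held between 12331501 and 21414162 reads on coding genes, of which 826620 to 2094217 were T>C reads, the fewest in PladB. All 10 luminal prostate markers were above 1 CPM (reads scaled to a common library total) in every library. The basal markers KRT5 and TP63 were at 0 in every library, and the summed levels reached at most 3.59 CPM for basal, 1.60 for blood and 0.934 for endothelial markers, 50.6 for neuroendocrine and 24.3 for fibroblast and smooth muscle markers. Unlabelled cells were not analysed here, and no background of T>C reads from sequencing error or variants was subtracted. Levels below are CPM on the scale of the fitted model, in which the libraries were scaled with the trimmed mean of M-values (TMM). They are not divided by transcript length, so they are compared between groups within a gene and not between genes. In bulk RNA, fewer cells with a transcript and less of it per cell cannot be told apart.

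On the TMM scale, PladB raised the newly made RNA of 5 of the 10 SR genes, lowered that of 1, and left 4 without a call. SRSF2 rose most, 3.81-fold, followed by SRSF7 (2.91-fold), SRSF4 (2.45-fold), SRSF1 (2.43-fold) and SRSF3 (2.00-fold). SRSF10 was the 1 member called lower, at 0.382 of its level in DMSO, and SRSF5, SRSF6, SRSF9 and SRSF11 were not called. These calls are edgeR quasi-likelihood tests with Benjamini-Hochberg adjustment over 10722 genes, at an adjusted p under 0.05. Of all genes tested, 4.72% were called higher and 5.91% lower, 10.6% in either direction. The median log2 change was 0.89 over the 10 members and -0.36 over all genes tested. All 3 PladB libraries lay above all 3 DMSO libraries in 7 members and below them in 1, where 10.4% and 17.4% of all genes did so.

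Several of these calls depend on the scaling. Scaled to all reads in place of T>C reads, the median of all genes shifted by -0.79 to -1.15. SRSF2 then stayed called higher (log2 change 1.13, adjusted p = 0.000238, edgeR) and SRSF10 lower (-2.20, adjusted p = 0.000738). On that scale SRSF7 stood at 0.74 (adjusted p = 0.0577), SRSF4 at 0.50 (adjusted p = 0.311), SRSF1 at 0.48 (adjusted p = 0.274) and SRSF3 at 0.20 (adjusted p = 0.600), none of them called by edgeR, and SRSF6, SRSF9 and SRSF11 turned to values below 0. Among all genes the split of calls moved from 506 higher and 634 lower to 85 higher and 1749 lower. A change of scaling shifts all genes by nearly the same amount. Distances from the median gene are therefore nearly fixed in advance and add no support to the calls. SRSF2 stood 2.29 log2 units above the median gene on the first scale and 2.28 on the second, and SRSF10 1.03 and 1.04 units below it (-1.03 and -1.04).

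**Figure D1:**
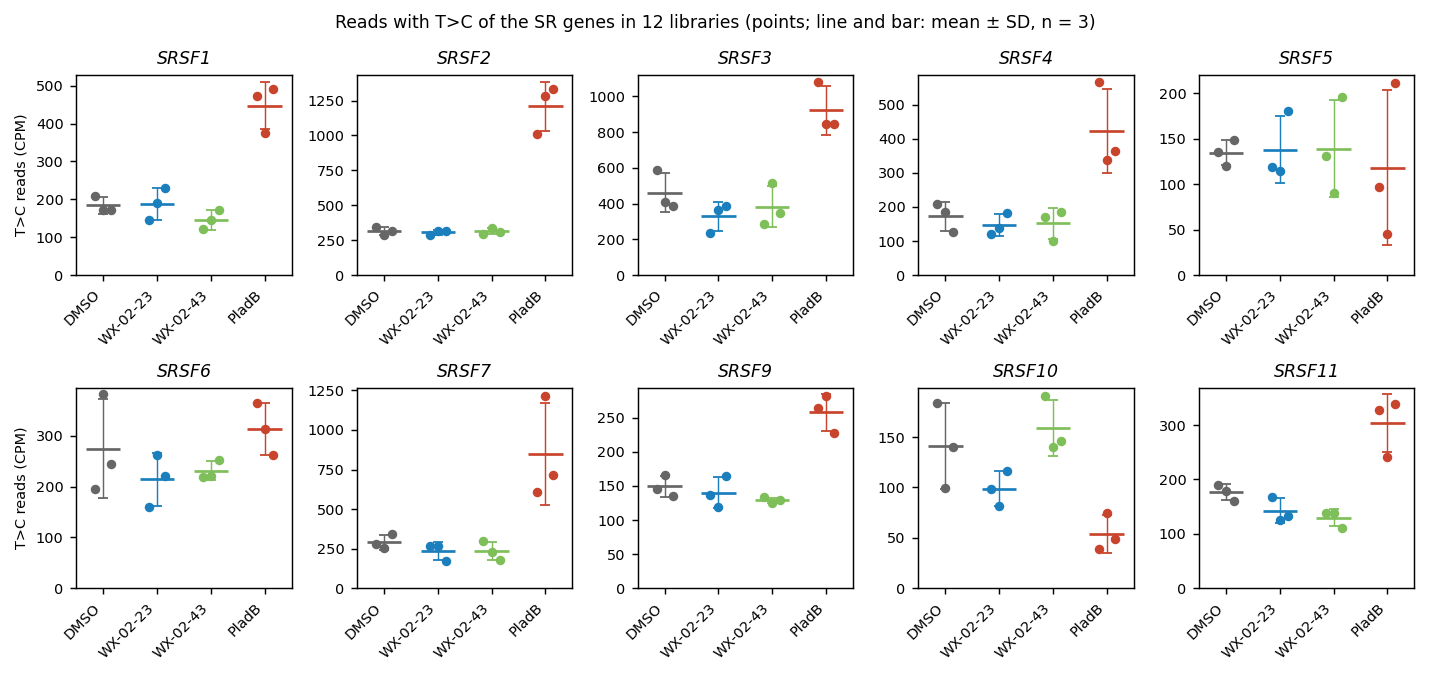
T>C reads (CPM, vertical axis from 0) of each SR gene in the 12 libraries by group; points are libraries, lines and bars mean ± SD with n = 3. In SRSF1, SRSF2, SRSF3, SRSF4, SRSF7, SRSF9 and SRSF11 all PladB points lie above all DMSO points, and in SRSF10 they lie below.

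SRSF2 encodes an SR protein of the nucleus that recognises exonic splicing enhancers, and its 3′ UTR interval lies on chromosome 17, 74730197 to 74732242, minus strand (hg19, as for all positions below). Its T>C reads stood at 347, 289.7 and 313 CPM in DMSO (replicates 1, 2 and 3), and at 1009.9, 1282 and 1332 CPM in PladB. The lowest PladB library was far above the highest DMSO library. The mean rose from 317 ± 29.1 (SD, n = 3) to 1208 ± 173 CPM, a log2 change of 1.93 (edgeR adjusted p = 7.60e-09, 95% interval 1.51 to 2.35, SE 0.21), and the call held with each of the 6 libraries left out.

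SRSF1, SRSF3 and SRSF7 encode SR proteins that shuttle between nucleus and cytoplasm and are also known as adaptors of mRNA export. Their 3′ UTR intervals are chromosome 17, 56078280 to 56083107 (minus strand) for SRSF1, chromosome 6, 36569767 to 36572244 (plus) for SRSF3 and chromosome 2, 38970741 to 38972274 (minus) for SRSF7. SRSF7 T>C reads were 279, 252 and 342 CPM in DMSO and 611, 1214 and 718 CPM in PladB. The groups did not overlap, and PladB replicate 2 stood well above the other two PladB libraries. The mean rose from 291 ± 45.9 to 847 ± 322 CPM (SD, n = 3), a log2 change of 1.54 (edgeR adjusted p = 6.84e-05, SE 0.27), and the change was 1.19 at the lowest when 1 library was left out. SRSF1 was at 209.7, 171 and 171 CPM in DMSO and at 474, 376 and 493 CPM in PladB, again without overlap. Its mean rose from 184 ± 22.3 to 447 ± 62.8 CPM (log2 change 1.28, edgeR adjusted p = 0.00292, SE 0.30). SRSF3 was at 590.1, 408 and 387 CPM in DMSO and at 1079, 843 and 843 CPM in PladB. Its mean rose from 462 ± 112 to 922 ± 136 CPM (log2 change 1.00, edgeR adjusted p = 0.00334, SE 0.23), with the highest DMSO library below the lowest of PladB. In SRSF3 31.3% of reads mapped to more than 1 place, so its level is uncertain; this share was 29.5% ± 1.71 in DMSO and 33.2% ± 0.893 in PladB (SD, n = 3).

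SRSF4, SRSF5 and SRSF6 are related SR proteins with a second, degenerate RNA recognition motif, and were called differently. Their 3′ UTR intervals are chromosome 1, 29474250 to 29474921 (minus strand) for SRSF4, chromosome 14, 70238179 to 70238722 (plus) for SRSF5 and chromosome 20, 42089704 to 42092245 (plus) for SRSF6. SRSF4 was at 209, 185 and 126 CPM in DMSO and at 566, 339.5 and 365 CPM in PladB. The groups did not overlap, and PladB replicate 1 was the high one. The mean rose from 173 ± 42.8 to 424 ± 124 CPM (log2 change 1.29, edgeR adjusted p = 0.00663, SE 0.33), but leaving out DMSO replicate 3 (adjusted p = 0.0511) or PladB replicate 1 (0.0707) ended the call. SRSF5 was at 135, 120.3 and 148 CPM in DMSO and at 97.1, 45.4 and 212 CPM in PladB. Its PladB libraries fell on both sides of DMSO, and the log2 change was -0.19 (edgeR adjusted p = 0.864, SE 0.46). SRSF6 was at 195, 383 and 244 CPM in DMSO and at 364, 313 and 261 CPM in PladB, with full overlap and a log2 change of 0.19 (edgeR adjusted p = 0.772, SE 0.30). The intervals of these changes, -1.11 to 0.73 for SRSF5 and -0.41 to 0.79 for SRSF6, leave room for changes in either direction.

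SRSF9, a short SR protein close in sequence to SRSF1 (3′ UTR on chromosome 12, 120899471 to 120899821, minus strand), was at 145, 167 and 136 CPM in DMSO and at 264, 282 and 228 CPM in PladB. SRSF11, an SR protein that contacts U2AF at the 3′ splice site (3′ UTR on chromosome 1, 70716489 to 70717703, plus strand), was at 191, 178 and 161 CPM in DMSO and at 328, 242 and 339 CPM in PladB. In both genes every PladB library lay above every DMSO library, yet neither was called. The log2 changes were 0.79 for SRSF9 (edgeR adjusted p = 0.143, SE 0.34) and 0.78 for SRSF11 (edgeR adjusted p = 0.125, SE 0.32). DESeq2 called both higher, with adjusted p = 0.0321 for SRSF9 and 0.0303 for SRSF11. The SRSF9 interval overlaps that of GATC on the opposite strand, and how strand was treated in counting is not given in the sources used here, so reads of GATC may be included.

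SRSF10 is an unusual member, known as a splicing repressor when dephosphorylated, as after heat shock. Its T>C reads were at 184, 99.4 and 140.2 CPM in DMSO and at 38.7, 74.9 and 48.4 CPM in PladB. Every PladB library was below every DMSO library, although PladB replicate 2 came near DMSO replicate 2. The mean fell from 141 ± 42.2 to 54.0 ± 18.7 CPM (SD, n = 3), a log2 change of -1.39 (edgeR adjusted p = 0.0435, 95% interval -2.32 to -0.46, SE 0.46). This rests on few reads (35 to 56 per PladB library) and on single libraries. The call ended when DMSO replicate 1 (adjusted p = 0.213), DMSO replicate 3 (0.0978), PladB replicate 1 (0.139) or PladB replicate 3 (0.0990) was left out, with only the DMSO and PladB libraries in the fit (0.115), and with no filter on low counts (0.0525), all by edgeR.

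In all reads, which hold RNA made before as well as during labelling, PladB raised 7 of the 10 SR genes and none was called lower. Of 13178 genes tested, 13.9% were called higher, 16.3% lower and 30.1% in either direction. The median log2 change was 0.47 over the members and -0.07 over all genes tested. SRSF2 rose 1.99-fold, from 234 ± 14.2 to 466 ± 35.0 CPM (log2 change 0.99, edgeR adjusted p = 8.69e-10, SE 0.10). SRSF4 rose from 102 ± 8.38 to 186 ± 22.6 CPM (0.87, SE 0.14, adjusted p = 2.77e-06) and SRSF3 from 417 ± 53.5 to 682 ± 55.3 CPM (0.71, SE 0.10, adjusted p = 5.41e-07), with 0.64 (adjusted p = 1.17e-05) once multimapping reads were taken off. SRSF7 rose from 270.3 ± 23.3 to 407 ± 11.1 CPM (0.59, SE 0.11, adjusted p = 3.86e-05) and SRSF9 from 422 ± 79.4 to 599 ± 49.2 CPM (0.50, SE 0.10, adjusted p = 0.000167).

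The smallest rises in all reads were those of SRSF11 and SRSF1. SRSF11 rose from 142 ± 11.1 to 191 ± 11.9 CPM (log2 change 0.43, edgeR adjusted p = 0.00619, SE 0.12). SRSF1 was at 179, 219.8 and 146 CPM in DMSO and at 254, 239 and 237 CPM in PladB, a log2 change of 0.42 (edgeR adjusted p = 0.00797, SE 0.12). DMSO replicate 2 stood only a little below PladB, and without DMSO replicate 3 SRSF1 was not called (log2 change 0.29, adjusted p = 0.107). SRSF5 (-0.04, SE 0.15, adjusted p = 0.881), SRSF6 (-0.22, SE 0.11, adjusted p = 0.139) and SRSF10 (-0.34, SE 0.15, adjusted p = 0.0740) were not called by edgeR. SRSF10 was called lower in all reads without DMSO replicate 2 (-0.51, adjusted p = 0.00440) and without PladB replicate 3 (-0.42, adjusted p = 0.0492), by edgeR, and also with no filter on low counts (adjusted p = 0.0438) or with plain sums over its nested intervals (adjusted p = 0.0103). Whether the T>C change of a gene differed from its change in all reads is asked by the labelled share below.

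**Figure D2:**
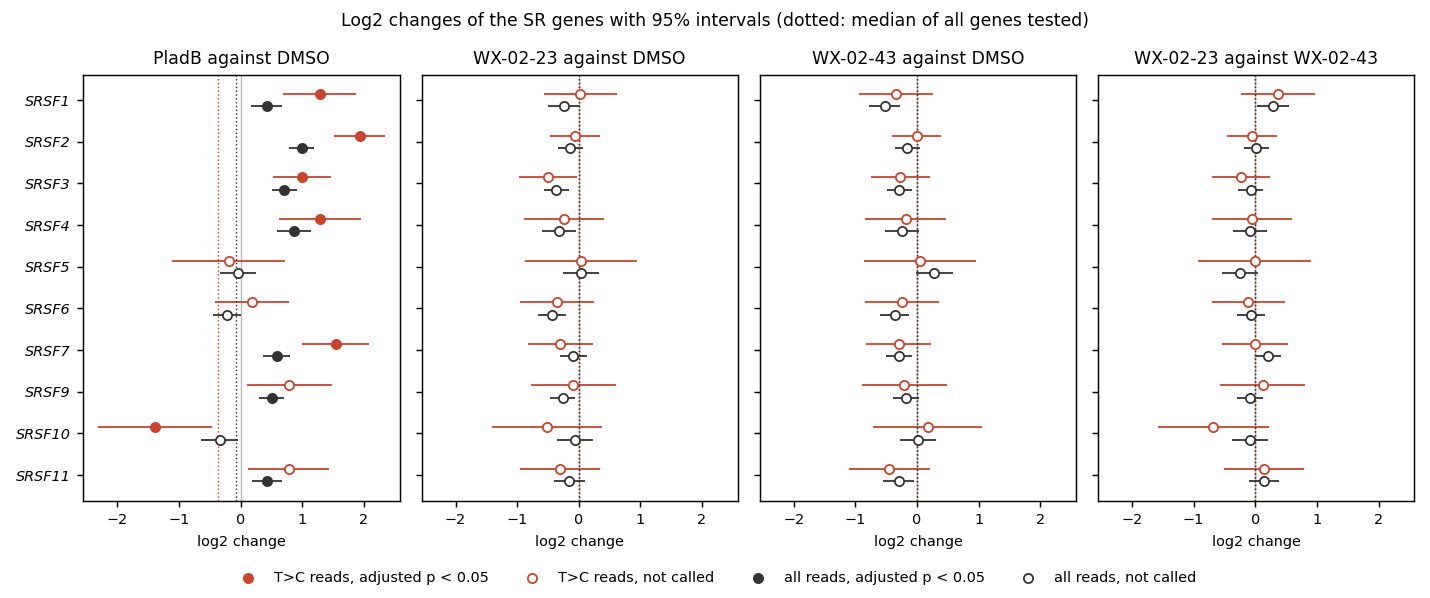
Log2 change of each SR gene (horizontal axis) in T>C reads and in all reads for the 4 comparisons, with 95% intervals; filled points have an edgeR adjusted p under 0.05 and dotted lines are the medians of all genes tested. Filled points occur in the PladB panel alone, 6 for T>C reads and 7 for all reads, and the stereoprobe panels hold none.

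The labelled share of a gene is the percent of its reads that carry T>C. Summed over the 10 SR genes it was 11%, 9.20% and 9.33% in DMSO and 8.59%, 8.90% and 7.89% in PladB. Every PladB library was below every DMSO library, by a small margin. The means were 9.85% ± 1.02 and 8.46% ± 0.517 (SD, n = 3), a ratio of 0.859 (exact two-sided permutation p = 0.1, which 3 against 3 libraries cannot go below, and 0.4 adjusted over 4 comparisons). The other coding genes had a share of 9.45% ± 0.429 in DMSO and of 5.43% ± 0.192 after PladB (ratio 0.575). The SR genes' share divided by that of the other coding genes was therefore 1.12, 1.02 and 0.978 in the DMSO libraries and 1.52, 1.68 and 1.48 in the PladB libraries (exact two-sided permutation p = 0.1, 0.4 after adjustment). The ratio was thus close to 1 in DMSO and above that in every PladB library.

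By gene, the labelled share of SRSF2 was 14.7%, 12% and 12% in DMSO and 13.3%, 14.7% and 14.3% in PladB. The groups overlapped, with no shift to lower values in PladB. SRSF10 went from 13.6%, 9.54% and 8.89% in DMSO to 2.41%, 4.11% and 2.34% in PladB. SRSF5 was at 14.5%, 14.4% and 15.5% in DMSO and at 6.80%, 3.36% and 11.5% in PladB. In 5 members (SRSF3, SRSF5, SRSF9, SRSF10 and SRSF11) every PladB library lay below every DMSO library, as it did in 33.6% of all genes tested. SRSF9 had the lowest share of the members in DMSO, 3.40% ± 0.482, and 2.37% ± 0.356 in PladB (SD, n = 3). In the other members the DMSO means ran from 9.93% (SRSF1) to 16.1% (SRSF4).

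**Figure D3:**
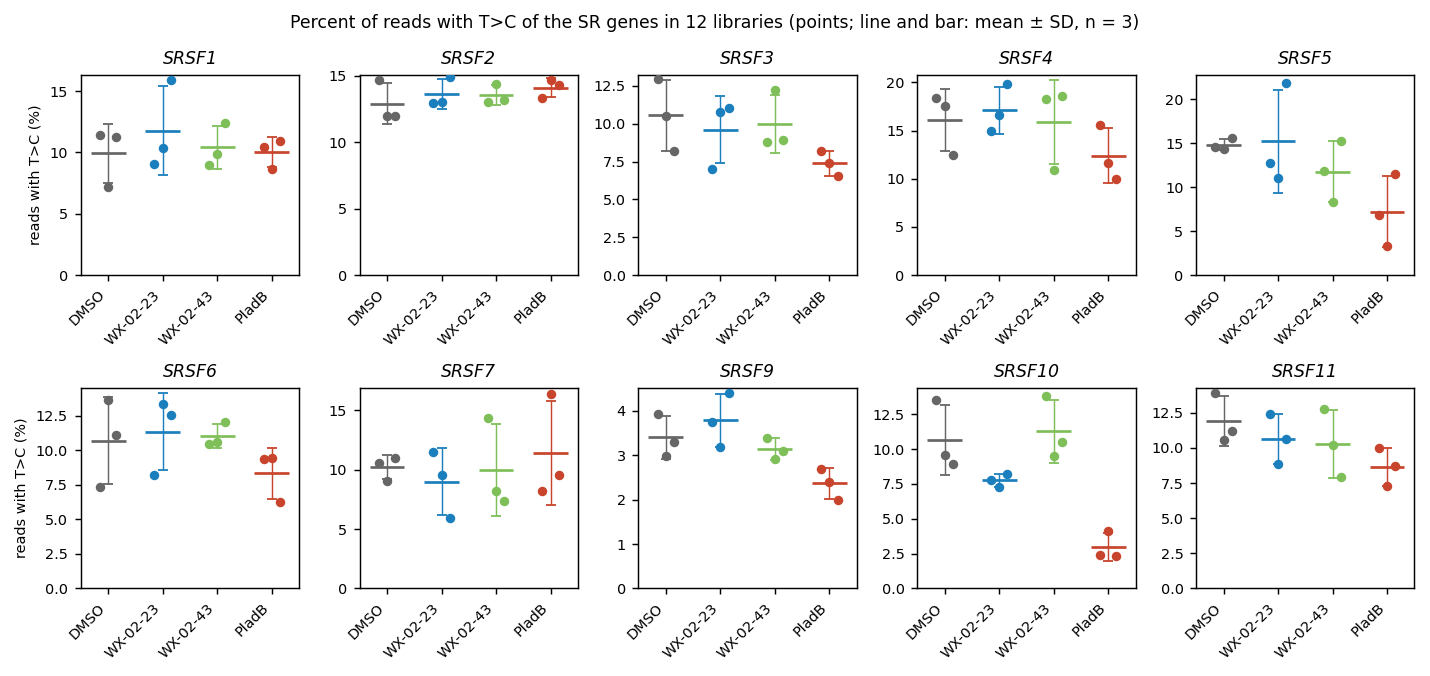
Percent of reads with T>C (vertical axis from 0) of each SR gene in the 12 libraries by group; points are libraries, lines and bars mean ± SD with n = 3. PladB points of SRSF10 lie between 2.34% and 4.11%, below all others, whereas those of SRSF2 overlap DMSO.

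With T>C and other reads each scaled by TMM, the test measures a change of log2(T>C / other reads) relative to the typical gene. Its sign can therefore differ from that of the change in percent. SRSF3, SRSF9 and SRSF11 had values above 0, though their percent was lower in every PladB library than in every DMSO library. By this test 1 of the 10 members was called after PladB, SRSF2, which was higher relative to the typical gene. Its log2 change was 1.03 (SE 0.22, adjusted p = 0.0123, edgeR over 10684 genes), where 0.899% of genes were called higher, 1.9% lower and 2.8% in either direction. The call was lost without DMSO replicate 3, and the adjusted p reached 0.0613. With 1 shared library total in place of separate scaling of T>C and other reads, which shifts the median of all genes by -0.83, SRSF2 stood at 0.16 (adjusted p = 0.686) and SRSF10 was called lower (-1.99, adjusted p = 0.00770). On the separate scaling, SRSF10 stood at -1.11 (SE 0.44, adjusted p = 0.198), SRSF7 at 0.99 (SE 0.33, adjusted p = 0.119) and SRSF1 at 0.92 (SE 0.34, adjusted p = 0.167), all short of a call by edgeR, though SRSF7 was called with no filter on low counts (adjusted p = 0.0318). SRSF6 (0.50, SE 0.34, adjusted p = 0.503), SRSF4 (0.43, SE 0.38, adjusted p = 0.617) and SRSF11 (0.36, SE 0.36, adjusted p = 0.666) were not called. Nor were SRSF9 (0.34, SE 0.25, adjusted p = 0.550), SRSF3 (0.33, SE 0.26, adjusted p = 0.569) and SRSF5 (-0.43, SE 0.53, adjusted p = 0.752), again by edgeR.

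The position of reads along the gene could be compared for SRSF10, SRSF1 and SRSF2, which have a noncoding RefSeq interval that runs upstream of the coding 3′ UTRs. SRSF10 had the most reads there. In hg19 its coding 3′ UTR intervals lie on the minus strand of chromosome 1, nested with a common 3′ end at 24290837, and the longest ends at 24297631. The noncoding interval of the gene runs on to 24306953, over gene body upstream of the 3′ UTRs, where exons and introns were not separated. The share of SRSF10 T>C reads in that upstream stretch was 51.1%, 72.6% and 49.4% in DMSO and 88.7%, 84.9% and 81.5% in PladB. All PladB libraries were above all DMSO libraries. The means were 57.7% ± 12.9 and 85.0% ± 3.59 (SD, n = 3; exact two-sided permutation p = 0.1, 0.4 after adjustment over 4 comparisons). In all reads the upstream share overlapped, at 35.3% ± 9.54 in DMSO and 39.2% ± 4.39 in PladB (exact permutation p = 0.6).

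As CPM of T>C reads on coding genes, without TMM scaling, the SRSF10 3′ UTR intervals went from 147 ± 44.9 in DMSO to 47.5 ± 18 in PladB (SD, n = 3; exact two-sided permutation p = 0.1, 0.2 after adjustment). The upstream stretch went from 206 ± 66.4 to 275 ± 101, with overlapping libraries (exact two-sided permutation p = 0.5). On this scale, the total of which was lower in every PladB library than in DMSO, the 3′ UTR part was lower in every PladB library and the upstream part was not. As raw counts, upstream T>C reads were 333, 376 and 220 in DMSO and 305, 316 and 154 in PladB. In all reads the upstream stretch went from 69.9 ± 12.5 to 55.8 ± 4.74 CPM, with overlapping libraries (SD, n = 3, exact two-sided permutation p = 0.2, 0.533 after adjustment). After the stereoprobes the upstream share of T>C reads was 66.2% ± 7.83 (WX-02-23) and 55.1% ± 5.88 (WX-02-43), with libraries that overlapped DMSO.

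SRSF1 differed in direction. Upstream of its 3′ UTRs it had 30, 44 and 47 T>C reads in DMSO and 24, 0 and 0 in PladB, a share of its T>C reads of 12.5% ± 4.24 and 1.59% ± 2.76 (SD, n = 3), with every PladB library below every DMSO library (exact two-sided permutation p = 0.1, 0.4 after adjustment over 4 comparisons). After the stereoprobes it had 27, 0 and 0 T>C reads there (WX-02-23) and 23, 0 and 51 (WX-02-43). The share was 2.69% ± 4.65 and 9.31% ± 8.56, overlapping DMSO. This SRSF1 stretch held 18 to 112 reads of any kind in a library, so these shares rest on few reads. In SRSF2 the upstream stretch held 0 T>C reads in every library, and at most 44 reads of any kind in a library.

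**Figure D4:**
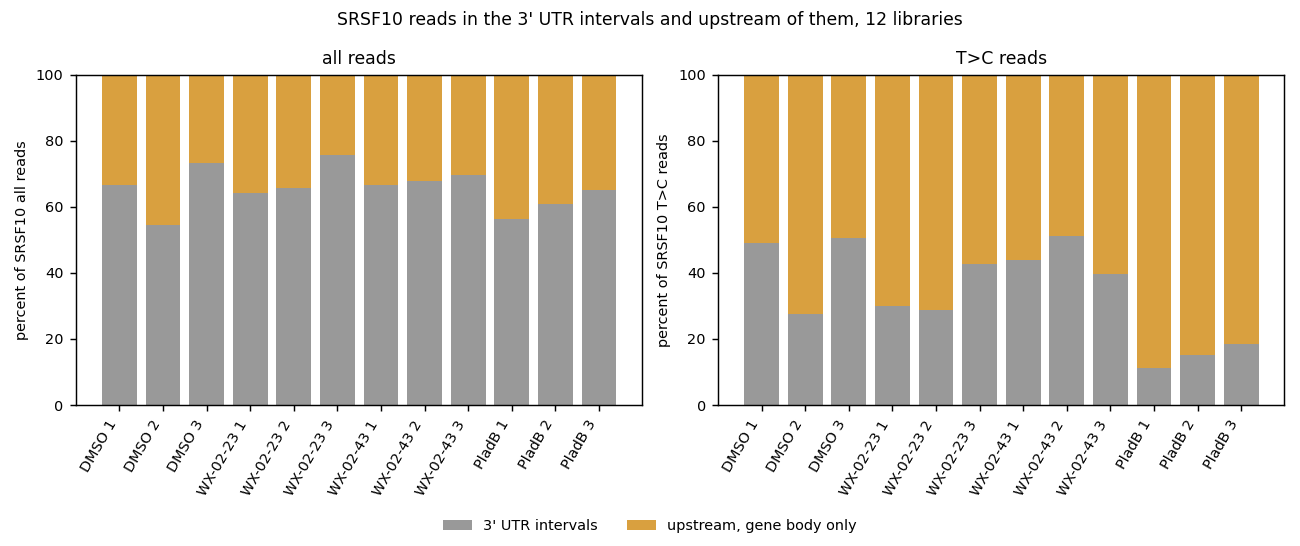
Percent of SRSF10 reads (vertical axis, 0 to 100) in the 3′ UTR intervals and upstream of them for all reads and for T>C reads, 1 bar per library. Upstream reads make up 81.5% to 88.7% of T>C reads in the 3 PladB libraries, and 49.4% to 72.6% in DMSO.

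After either stereoprobe no SR gene was called by edgeR, whether in T>C reads, in all reads or in the labelled share. In T>C reads 0 of 10 members were called after WX-02-23, where 0.224% of all genes were, and 0 of 10 after WX-02-43, where 0.0933% were. At an unadjusted p under 0.05 there was 1 member for WX-02-23 (SRSF3), where 4.53% of all genes were, and 0 for WX-02-43, where 3.81% were, and DESeq2 called 0 in both. The WX-02-23 change in SRSF3 T>C reads was -0.49 (SE 0.23, adjusted p = 1.00), from 462 ± 112 to 328 ± 79.5 CPM. SRSF6 (-0.36, SE 0.30) and SRSF7 (-0.30, SE 0.26) came next, also with an adjusted p of 1.00 by edgeR. For WX-02-43 the smallest p-values were those of SRSF11 (-0.45, SE 0.32), SRSF1 (-0.34, SE 0.29) and SRSF3 (-0.27, SE 0.23), each with an adjusted p of 1.00 by edgeR. Of the 10 changes in T>C reads, 8 were below 0 for WX-02-23 and 8 for WX-02-43, none of them called. The median log2 change of the members was -0.27 and -0.23, against 0.0016 and 0.0043 over all genes tested. The 3 comparisons with DMSO share the same 3 control libraries, so their values are not independent.

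All reads were measured more precisely, and there some members came near the threshold. After WX-02-23, where 0.698% of all genes were called, SRSF6 went from 259, 257 and 210.2 CPM in DMSO to 185, 182 and 169 CPM. Its libraries lay below all of DMSO, and the log2 change was -0.44 (edgeR adjusted p = 0.0594, SE 0.11). SRSF3 went from 446, 355 and 451 CPM to 323, 313 and 335 CPM, a log2 change of -0.37 (edgeR adjusted p = 0.0827, SE 0.10). DESeq2 called both lower, SRSF6 with adjusted p = 0.00669 and SRSF3 with adjusted p = 0.0176. SRSF9 came next, at -0.26 (edgeR adjusted p = 0.357, SE 0.10). After WX-02-43, where 0.167% of all genes were called, SRSF1 went from 179, 219.8 and 146 CPM to 126, 129 and 122 CPM. All 3 libraries lay below DMSO, whose own libraries were spread widely, and the log2 change was -0.53 (SE 0.13, adjusted p = 0.0708 by edgeR, 0.0136 by DESeq2). SRSF6 (-0.36, SE 0.11, adjusted p = 0.381) and SRSF3 (-0.29, SE 0.10, adjusted p = 0.517) followed, by edgeR. At an unadjusted p under 0.05 there were 4 members for WX-02-23, where 8.7% of all genes were, and 5 for WX-02-43, where 5.86% were, all of these members with values below 0. All 3 libraries lay below all of DMSO in 4 members for WX-02-23 and in 6 for WX-02-43, as they did in 6.96% and 5.68% of all genes. They lay above all of DMSO in 0 members for WX-02-23 and in 1 for WX-02-43, as in 6.89% and 6.25% of all genes. That member was SRSF5 (0.28, SE 0.15, adjusted p = 0.868, edgeR). The median log2 change of the 10 members was -0.20 and -0.27, against 0.0018 and 0.0019 over all genes tested.

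Which call appeared in all reads depended on the control libraries. Without DMSO replicate 2 SRSF3 was called lower after WX-02-23 (-0.47, adjusted p = 0.00619, edgeR), and without DMSO replicate 3 SRSF6 was (-0.53, adjusted p = 0.0235). Without DMSO replicate 3 SRSF1 was called lower after WX-02-43 (-0.66, adjusted p = 0.00600, edgeR). In the labelled share, 0 of 10 members were called for either stereoprobe, where 0.0187% of genes were called in each comparison, and 0 members had an unadjusted p under 0.05, against 3.59% of all genes for WX-02-23 and 3.44% for WX-02-43. The summed labelled share of the SR genes was 9.71% ± 0.816 after WX-02-23 and 9.64% ± 0.493 after WX-02-43 (SD, n = 3), against 9.85% ± 1.02 in DMSO (exact two-sided permutation p = 0.8 and 0.9).

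Counted by T positions in place of reads, the direction for both stereoprobes was the opposite. Of the T positions covered in the SR genes, 0.813%, 0.651% and 0.603% were converted in DMSO, 0.716%, 0.769% and 0.876% after WX-02-23 and 1.12%, 0.917% and 0.968% after WX-02-43. Every WX-02-43 library lay above every DMSO library, a ratio of means of 1.45 (exact two-sided permutation p = 0.1, 0.133 after adjustment over 4 comparisons), and the WX-02-23 libraries overlapped DMSO (ratio 1.14, exact permutation p = 0.3). The other coding genes were also higher by this measure, at 0.706% ± 0.0243 in DMSO, 0.811% ± 0.0157 after WX-02-23 and 0.913% ± 0.0363 after WX-02-43 (SD, n = 3). Divided by the other coding genes, the SR genes stood at 0.974 ± 0.135 in DMSO, 0.971 ± 0.106 after WX-02-23 and 1.10 ± 0.0732 after WX-02-43, with overlapping libraries (exact two-sided permutation p = 1.0 and 0.3). After PladB this quotient was 1.65 ± 0.154, above all DMSO libraries (exact two-sided permutation p = 0.1, 0.4 after adjustment).

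The 2 stereoprobes had the same dose and time, and they were compared with each other directly in each of the 10 members. In T>C reads 0 of 10 members were called by edgeR, where 0.0466% of all genes were, with an adjusted p of 1.00 in every member, and in all reads 0 of 10, where 0.152% were. At an unadjusted p under 0.05 there were 0 members in T>C reads, against 2.85% of all genes, and 1 in all reads, SRSF1, against 5.52%, and DESeq2 called 0 in both. SRSF1 stood at 154 ± 15.2 CPM after WX-02-23 and at 126 ± 3.23 CPM after WX-02-43 in all reads, a log2 difference (WX-02-23 minus WX-02-43) of 0.29 (95% interval 0.03 to 0.54, adjusted p = 0.858, edgeR). SRSF7 (0.21, interval -0.01 to 0.42) and SRSF5 (-0.25, interval -0.55 to 0.05) came next. Over all 10 members the 95% intervals of the difference in all reads lay between -0.55 and 0.54. In T>C reads they lay between -1.58 and 0.96, which does not show that the compounds act alike on the newly made RNA. The difference farthest from 0 was that of SRSF10, at 98.9 ± 16.9 CPM after WX-02-23 and 159 ± 28.0 CPM after WX-02-43 (difference -0.68, interval -1.58 to 0.22, edgeR). No overlap was seen between these libraries of SRSF10, the only member of which this was true in T>C reads, where 10.7% of all genes had groups that did not overlap. In the labelled share 0 of 10 members were called by edgeR, 0.0% of all genes were, and 0 members had an unadjusted p under 0.05, against 2.85% of all genes.

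PladB was given at another dose, so its values are set beside those of the stereoprobes without a test. On the TMM scale PladB had the highest group mean of T>C reads in 8 of the 10 members. The share of all genes with PladB highest was not counted. Scaled to all reads, SRSF6, SRSF9 and SRSF11 stood below 0 against DMSO, as given above. In SRSF2 the mean was 1208 CPM in PladB, and 317, 305 and 315 CPM in DMSO, WX-02-23 and WX-02-43. The latter 3 groups differ by less than their spread. The 2 members in which PladB was not highest were SRSF5 and SRSF10. The SRSF10 means ran from PladB (54.0 CPM) over WX-02-23 (98.9) and DMSO (141) to WX-02-43 (159). The SRSF5 means were 118 ± 85.1 in PladB, 135 ± 14.0 in DMSO, 138 ± 36.9 in WX-02-23 and 139 ± 53.2 CPM in WX-02-43 (SD, n = 3), with libraries that overlapped between PladB and each other group.

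The SR genes also share a feature of annotation. In GENCODE release 29, matched by name, 10 of 10 members had at least 1 transcript of the nonsense-mediated decay type, against 43.2% of 10494 tested coding genes that matched. At least 1 retained-intron transcript was annotated in 8 of 10 members, against 57.5% of those genes. SRSF6 and SRSF11 were the members without one. Reads at 3′ ends do not tell these transcripts apart where they share a 3′ UTR.

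Other genes for proteins with arginine-serine repeats moved in both directions after PladB. Of 35 such genes tested in T>C reads on the TMM scale, 4 rose, 2 fell and 29 were not called, where 4.72% of all genes rose and 5.91% fell. The median log2 change was 0.39, against -0.36 over all genes tested. Calls of these genes scaled to all reads are not given here. That scaling moved the calls among all genes from 506 higher and 634 lower to 85 higher and 1749 lower. SRSF8, a close relative of SRSF2, rose by 1.97 (edgeR adjusted p = 0.000204, SE 0.37), ARGLU1, a transcription and splicing cofactor, by 1.61 (SE 0.34, adjusted p = 0.00101), U2AF2, the subunit of U2AF that binds the polypyrimidine tract, by 1.39 (SE 0.19, adjusted p = 1.87e-06), and RSRP1 by 1.29 (SE 0.36, adjusted p = 0.0135) on the log2 scale. RNPS1, a component of the exon junction complex, fell by 1.75 on the log2 scale (edgeR adjusted p = 0.0130, SE 0.48). SCAF4, which restrains early polyadenylation, had 119, 145 and 185 T>C reads in the DMSO libraries and 0 in each PladB library, at least 25.6-fold lower against a floor of 3 counts per library (adjusted p = 7.13e-07, edgeR). In all reads SCAF4 stood at -0.17 (SE 0.32, adjusted p = 0.752, edgeR). In the labelled share, relative to the typical gene, 1 of 35 such genes was called higher, 1 lower and 33 were not called. Of all genes 0.899% were called higher and 1.9% lower. The 1 higher was U2AF2 (1.09, SE 0.22, adjusted p = 0.00591, edgeR) and the 1 lower was SCAF4 (adjusted p = 0.000311, edgeR). In all reads 10 of 36 such genes rose, 4 fell and 22 were not called, where 13.9% of all genes rose and 16.3% fell, with a median of 0.04 against -0.07. By size, RBM23 (-1.29) and RBM39 (-1.0) fell, while ARGLU1 (1.26), SRSF8 (0.92), U2AF1L4 (0.88) and RSRP1 (0.87) rose on the log2 scale, with adjusted p from 1.19e-08 to 0.0344 by edgeR.

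Some kinases and the importin of SR proteins changed in all reads after PladB, and none of them was called in T>C reads. In T>C reads 0 of 10 tested were called by edgeR, where 10.6% of all genes were. An unadjusted edgeR p under 0.05 was found in 24.1% of all genes and in 1 of these 10 (DYRK1A, 0.92, adjusted p = 0.174). Their median was -0.18, or 0.22 over the 9 other than DYRK1B, against -0.36 over all genes. DYRK1B had no T>C read in PladB, and its DMSO mean was not above the floor of 3 counts per PladB library (3.71 CPM). In all reads 1 of 11 rose, 5 fell and 5 were not called, where 13.9% of all genes rose and 16.3% fell, with a median of -0.55 against -0.07. CLK4 fell by 3.44 on the log2 scale (edgeR adjusted p = 0.00256, SE 0.89), from 5.47 ± 1.20 to 0.50 ± 0.60 CPM (SD, n = 3). Its PladB level was very low, with an SD above the mean, so the size of this fall is uncertain. CLK2 fell by 0.92 (SE 0.20, adjusted p = 0.000383), SRPK2 by 0.81 (SE 0.30, adjusted p = 0.0361), SRPK1 by 0.61 (SE 0.20, adjusted p = 0.0200) and TNPO3 by 0.55 (SE 0.12, adjusted p = 0.000356), by edgeR. DYRK1A, a further kinase of splicing factors, rose by 1.18 (edgeR adjusted p = 1.50e-05, SE 0.20). After either stereoprobe 0 genes of both lists were called by edgeR in T>C reads or all reads, where 0.0933% to 0.698% of all genes were.

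The 5 genes whose T>C reads followed the mean of the SR genes most closely over the 12 libraries were HDAC1 (Pearson r 0.969), NACA2 (0.958), C1QBP (0.956), RPS28 (0.956) and RPLP0 (0.955). Their means were highest in PladB, where the 12 libraries fall into PladB and the rest, so r mostly restates that step. HDAC1, a histone deacetylase, went from 349.8 CPM in DMSO to 771 in PladB, with 307 in WX-02-23 and 305 in WX-02-43. RPS28 and RPLP0 encode ribosomal proteins, and RPS28 went from 1415 to 2829 CPM. NACA2 is a near copy of NACA, and ribosomal protein genes have many pseudogenes, so how reads were assigned to them is uncertain.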

How the data were processed

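Per the labels' protocols, RNA was alkylated with iodoacetamide and made into QuantSeq 3′ libraries. Mapping and counting were done with slamdunk 0.4.3, over a curated RefSeq 3′ UTR annotation with added spike-ins, per the file headers. The submitters' processing notes name hg19 as the build. The deposited tables hold raw read counts, T>C read counts and multimapping counts per interval, CPM made by the authors, and the conversion rate, a fraction of covered T positions. Only the counts entered tests. Of 29255 intervals, 23086 were coding. In each cluster of overlapping intervals of a gene, the one with most reads was used. The members and gene lists were chosen with earlier results of these data known. All 10 members are named, with all their PladB changes and, for the other comparisons, the 3 smallest p-values if fewer than 3 were called. Of each list, up to 6 called genes are named by size of change, and the 5 genes of like pattern by correlation.

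Tests used edgeR 4.0.16 under R 4.3.3 (quasi-likelihood, TMM, filterByExpr, all 12 libraries, group as the only term), adjusted by Benjamini-Hochberg over all genes tested. The labelled share was tested as the interaction of read kind (T>C or other) and group, with library as a term. Summed shares used exact two-sided permutation tests. Scripts were tested on simulated data. Alternatives were DESeq2 1.42.0, other scalings, no filter, plain sums, multimapping reads removed, a replicate block, 2-group fits and leaving out each library. Reads carry no molecular identifiers, so the floor covers counting error only. Sequences are not printed.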

Additional observations from a re-analysis of the deposited data

Results flagged for a closer look

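Reads of SRSF10 upstream of its coding 3′ UTR intervals, which no test above uses as a gene value, made up 85.0% ± 3.59 of its T>C reads in PladB, against 57.7% ± 12.9 in the DMSO controls (SD, n = 3). The signal was picked out because it lies outside the coding intervals and above the controls in every library. Whether it comes from introns or from exons of the gene was not tested, since the interval does not separate them. Single libraries differed widely in DMSO, where replicate 2 stood at 72.6%.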

How the results depend on the processing

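Coding genes called in T>C reads with WX-02-23, WX-02-43 and PladB against DMSO, and between the stereoprobes, were 24, 10, 1140 and 5 by edgeR. DESeq2 called 75, 49, 1983 and 26. Without a filter 16 (WX-02-43) and 8 (between the stereoprobes) were called, with plain sums 13 (WX-02-23) and 2 (between them). Scaled to all reads PladB had 1834 genes and 2 SR genes, and with only its 2 groups in the fit 493 genes. On all reads, where the counts were 92, 22, 3971 and 20, no filter gave 140, 36 and 33 for the stereoprobe comparisons and DESeq2 161, 55 and 35. Plain sums gave 53 (WX-02-23) and 12 (between them), and 2-group fits 56 (WX-02-23). On all reads 2 SR genes were called after WX-02-23 and 1 after WX-02-43, both with no filter and with DESeq2. For the labelled share (2, 2, 299 and 0 genes), a shared library total gave 1, 0 and 1186 genes against DMSO, and no filter 17 (WX-02-43), 510 with 2 SR genes (PladB) and 9 (between the stereoprobes).

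With 1 library left out, genes called in T>C reads ran from 12 to 23 (WX-02-23), 8 to 14 (WX-02-43), 840 to 1154 (PladB) and 1 to 3 (between the stereoprobes). On all reads they ran from 41 to 86, 13 to 29, 3269 to 3652 and 7 to 11, and for the labelled share from 2 to 3, 1 to 3, 169 to 318 and 0 to 1. SR genes called ran from 4 to 6 (T>C reads, PladB), 6 to 8 (all reads, PladB), 0 to 1 (all reads, each stereoprobe) and 0 to 1 (labelled share, PladB). Differences in the summed labelled share ran from -0.566 to 0.447 points (WX-02-23), -0.531 to 0.381 (WX-02-43), -1.71 to -0.803 (PladB) and -0.361 to 0.452 (between the stereoprobes). As percent of T positions converted the sign turned for the stereoprobes, to 0.0981 (WX-02-23), 0.313 (WX-02-43, with no overlap with DMSO) and -0.215 (between them), and with plain sums to 0.128 (WX-02-43) and -0.219 (between them).

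Signs that turned were of values not called. For PladB in T>C reads scaled to all reads, SRSF6 was -0.59, SRSF9 -0.0015 and SRSF11 -0.021. With a shared total in its labelled share, SRSF3 was -0.55, SRSF4 -0.45, SRSF6 -0.38, SRSF9 -0.54 and SRSF11 -0.51. With 1 library left out, PladB values ran from -0.91 to 0.19 (SRSF5) and -0.0020 to 0.51 (SRSF6) in T>C reads, -0.17 to 0.031 (SRSF5) in all reads and -0.93 to 0.052 (SRSF5) in the labelled share. For WX-02-23 the labelled share ran from -0.0021 to 0.47 (SRSF1) and -0.46 to 0.057 (SRSF7), for WX-02-43 from -0.12 to 0.43 (SRSF6). Between the stereoprobes, T>C reads ran from -0.39 to 0.042 (SRSF3) and the labelled share from -0.45 to 0.072 (SRSF7). The cause of these shifts was not tested, beyond fewer libraries in the fits that leave 1 out.

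Replicate numbers did not pair the libraries: deviations of same-numbered libraries correlated from -0.032 to 0.026 over genes. With the replicate block, 1089 genes and 5 SR genes were called in PladB T>C reads (SRSF10 no longer, adjusted p = 0.0691, edgeR), 3953 and 7 in all reads and 301 and 1 in the labelled share, and the WX-02-43 labelled share had 5 genes. T>C reads of SRSF10 numbered 35 to 56 and those of SRSF5 34 to 153 in the PladB libraries, and both had wide intervals.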
